A study of Mus musculus with 12 samples.

Results

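Imprinted genes are transcribed mainly from 1 parental chromosome. Open chromatin near 39 of them, spread over 19 clusters or single loci, was examined in mouse aortic endothelial cells. Every ATAC-seq peak lying within 10 kb of the span of a member, coding or non-coding, was counted. Over the 4 diet groups these peaks merged into 66 regions, of 37222 regions that lay as close to any of 34328 protein-coding and lncRNA genes.

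The 8 ATAC-seq samples formed 4 groups of 2, and the 4 H3K27ac samples of the series were not analysed here. In CDM-CDO mothers and offspring had the diet labelled CD, and in WDM-CDO the mothers had the diet labelled WD and the offspring CD. In CDM-WDO the mothers had CD and the offspring received WD for 4 weeks, and in WDM-WDO such WD of the offspring followed WD in the mothers. The 4 weeks are labelled as renewed WD in both groups, but no earlier WD of the CDM-WDO offspring is recorded here. The series' title speaks of a high-fat diet of the mothers and of atherosclerosis in offspring. No source used here gives the strain, genotype, sex or number of animals per sample. The peak names carry the tag 08w in both CDO lists and 12w in both WDO lists, so the diet of the offspring cannot be told apart from whatever that tag marks. One peak list stood for each group, and therefore no comparison has a replicate check or a p-value.

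Genomic imprinting rests on DNA methylation that is laid down in the egg or the sperm and kept on that parental copy after fertilisation. Methylated in the egg are the promoters of Kcnq1ot1, Airn, Plagl1, Peg3, Mest, Snrpn, Peg10, Zrsr1, Peg13, Impact and Nap1l5, among others, while the control regions of the Igf2-H19, Dlk1-Meg3 and Rasgrf1 loci are methylated in the sperm and lie between genes. Many imprinted genes steer fetal and placental growth, and several are shut down in adult tissues. ATAC-seq reads do not tell the parental chromosomes apart in these lists.

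The lists held 18962 to 28319 peaks on chromosomes 1 to 19 and X, fewest in CDM-WDO and most in WDM-CDO, with 31 to 39 reads at the median summit. Of 12 endothelial markers, 8, 12, 11 and 10 had a peak within 10 kb in CDM-CDO, WDM-CDO, CDM-WDO and WDM-WDO, the order used for all values below. At that distance macrophage markers numbered 5, 4, 4 and 8 of 8 and lymphocyte markers 7, 8, 4 and 5 of 8. Smooth muscle markers numbered 4, 3, 2 and 3 of 6, fibroblast markers 3, 3, 4 and 4 of 6, and adipocyte markers 3, 4, 3 and 4 of 4. Of all genes, 54.1%, 59.4%, 48.6% and 56.2% had a peak within 10 kb. Within 1 kb of a gene end the endothelial counts were 3, 5, 4 and 3 of 12, beside 36.7%, 39.5%, 30.3% and 36.6% of all genes. Cdh5, Pecam1, Tek, Sox17, Sox18, Egfl7 and Robo4 had no such peak in any list. Macrophage markers had a gene-end peak at 3, 2, 2 and 8 of 8 genes, and lymphocyte markers at 5, 6, 0 and 4 of 8. Smooth muscle markers had one at 2, 2, 1 and 1 of 6, fibroblast markers at 1, 1, 1 and 2 of 6, and adipocyte markers at 1, 1, 0 and 0 of 4. In such bulk samples a smaller share of cells of a type and less open chromatin per cell cannot be told apart, and the part of other cell types in the results below was not tested.

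RefSeq promoter windows (GRCm38.p6, 250 bases before to 50 after a start) were at hand for 31 of the 39 members, and those of H19, Cdkn1c, Kcnq1, Peg10, Sgce, Impact, Peg13 and Trappc9 were not. The windows below were chosen because the peaks described later fall on them, stop short of them or miss them. All are written 5′ to 3′ on the strand of the gene. Capitals mark TGCCGC or its reverse complement GCGGCA, the core motif bound, when methylated, by the imprint-keeping zinc finger protein ZFP57. A match is a description of the letters and no evidence of binding. The first 4 windows were overlapped by a peak in all 4 lists.
Plagl1 (chr10:13090582-13090881, plus strand): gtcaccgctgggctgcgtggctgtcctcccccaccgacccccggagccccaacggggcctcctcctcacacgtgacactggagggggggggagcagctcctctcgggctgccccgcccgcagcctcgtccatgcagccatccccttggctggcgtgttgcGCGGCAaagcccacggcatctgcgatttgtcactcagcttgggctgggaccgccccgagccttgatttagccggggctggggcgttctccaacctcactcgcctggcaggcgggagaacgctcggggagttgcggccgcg
Kcnq1ot1 (chr7:143296498-143296797, minus strand): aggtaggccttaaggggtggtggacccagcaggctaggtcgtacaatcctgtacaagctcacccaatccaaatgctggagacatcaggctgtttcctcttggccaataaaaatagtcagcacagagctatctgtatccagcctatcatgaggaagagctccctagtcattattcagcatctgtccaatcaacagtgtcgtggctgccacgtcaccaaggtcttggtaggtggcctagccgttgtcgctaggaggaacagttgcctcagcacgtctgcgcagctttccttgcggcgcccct
Zrsr1 (chr11:22971755-22972054, plus strand): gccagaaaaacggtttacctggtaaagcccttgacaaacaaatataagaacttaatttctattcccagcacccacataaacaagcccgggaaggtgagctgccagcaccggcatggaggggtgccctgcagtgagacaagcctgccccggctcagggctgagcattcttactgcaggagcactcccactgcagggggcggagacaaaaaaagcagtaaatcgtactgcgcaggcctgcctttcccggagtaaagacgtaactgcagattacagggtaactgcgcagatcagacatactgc
Gnas (chr2:174327499-174327798, plus strand): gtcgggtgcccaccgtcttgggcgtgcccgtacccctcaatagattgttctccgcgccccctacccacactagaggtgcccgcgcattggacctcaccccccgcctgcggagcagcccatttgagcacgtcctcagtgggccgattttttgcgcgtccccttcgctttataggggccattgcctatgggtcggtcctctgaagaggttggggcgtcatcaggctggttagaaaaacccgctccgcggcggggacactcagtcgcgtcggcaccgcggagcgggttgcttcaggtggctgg
The Mest window was overlapped in both CDO lists, that of Igf2r in every list but WDM-WDO and that of Airn in WDM-WDO alone.
Mest (chr6:30737800-30738099, plus strand): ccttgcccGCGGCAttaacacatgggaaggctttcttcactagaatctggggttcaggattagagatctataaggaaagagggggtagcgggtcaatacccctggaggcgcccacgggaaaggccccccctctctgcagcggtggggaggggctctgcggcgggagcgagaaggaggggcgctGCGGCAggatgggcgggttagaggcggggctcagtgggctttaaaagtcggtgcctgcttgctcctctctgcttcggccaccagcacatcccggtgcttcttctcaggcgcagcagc
Igf2r (chr17:12769657-12769956, minus strand): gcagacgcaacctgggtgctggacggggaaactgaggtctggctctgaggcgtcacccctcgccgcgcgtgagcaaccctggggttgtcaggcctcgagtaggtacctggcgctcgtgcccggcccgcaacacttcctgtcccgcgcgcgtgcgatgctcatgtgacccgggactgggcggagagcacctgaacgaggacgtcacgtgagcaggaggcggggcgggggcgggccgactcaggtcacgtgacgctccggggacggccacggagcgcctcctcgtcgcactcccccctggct
Airn (chr17:12741061-12741360, plus strand): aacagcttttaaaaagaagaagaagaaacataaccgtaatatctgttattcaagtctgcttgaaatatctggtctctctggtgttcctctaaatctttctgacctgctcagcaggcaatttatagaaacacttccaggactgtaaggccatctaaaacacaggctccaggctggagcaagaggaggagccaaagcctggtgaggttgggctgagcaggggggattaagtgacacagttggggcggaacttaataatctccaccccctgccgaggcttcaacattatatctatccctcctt
The Snrpn window lay just outside a region found in both lists of CD mothers, and the Meg3 window had no peak in any list.
Snrpn (chr7:60005150-60005449, minus strand): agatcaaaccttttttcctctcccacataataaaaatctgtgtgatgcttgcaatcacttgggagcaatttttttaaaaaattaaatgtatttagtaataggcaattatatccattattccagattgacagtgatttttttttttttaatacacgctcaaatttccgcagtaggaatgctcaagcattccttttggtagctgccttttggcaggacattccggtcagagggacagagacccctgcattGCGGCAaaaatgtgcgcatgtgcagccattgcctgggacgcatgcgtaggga
Meg3 (chr12:109540746-109541045, plus strand): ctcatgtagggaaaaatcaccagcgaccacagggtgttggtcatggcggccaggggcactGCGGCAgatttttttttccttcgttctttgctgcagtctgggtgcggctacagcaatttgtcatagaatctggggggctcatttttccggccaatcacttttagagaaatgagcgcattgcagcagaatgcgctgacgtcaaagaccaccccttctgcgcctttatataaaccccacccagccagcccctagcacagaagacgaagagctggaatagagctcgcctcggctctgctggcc
The motif occurred once in the Plagl1, Snrpn and Meg3 windows and at 2 places in that of Mest. Over all 32619 RefSeq windows, 11.7% held it on either strand, and 12 of the 47 member windows did (25.5%).

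A peak within 10 kb was present for 28, 25, 23 and 25 of the 39 members, beside 54.1%, 59.4%, 48.6% and 56.2% of all genes. The member shares were 71.8% (95% Wilson interval 56.2 to 83.5%), 64.1% (48.4 to 77.3%), 59.0% (43.4 to 72.9%) and 64.1% (48.4 to 77.3%), and these intervals cover counting error only. Only in CDM-CDO did the interval lie above the share of all genes. With a −log10 q of at least 5 the members with a peak in CDM-CDO numbered 18 rather than 28. The intervals also treat members as independent, although 15 of the 66 regions lay near more than 1 member. All genes were not matched to the members in length or in the share of lncRNA genes. Of the members, 18 had a peak in every list, 7 in 3 lists, 2 in 2 lists, 4 in 1 list and 8 in none. The shares of all genes were 41.3%, 8.86%, 7.18%, 12.0% and 30.6% in the same order. Nearer the genes, the shares of all genes lay within the members' intervals in every list. A peak within 1 kb of an end was called for 15, 13, 12 and 16 members, beside 36.7%, 39.5%, 30.3% and 36.6% of all genes. On the promoter windows, 12, 11, 10 and 10 of 31 members had a peak, beside 34.8%, 37.3%, 29.3% and 34.4%.

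**Figure D1:**
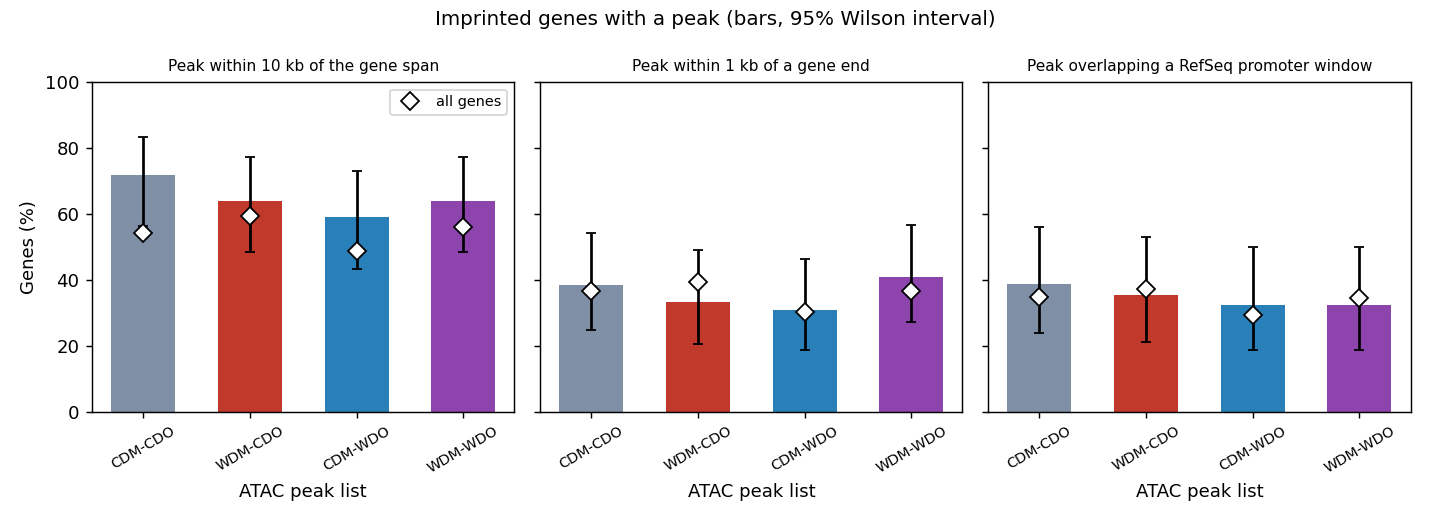
Share of genes with a peak (%, bars, imprinted genes with 95% Wilson interval; diamonds, all genes) in the 4 ATAC peak lists, for 3 definitions of nearness. The bars lie near the diamonds at gene ends and promoter windows and furthest above them for peaks within 10 kb in CDM-CDO (71.8% against 54.1%).

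Of the 66 regions, 22 were in all 4 lists (33.3%, interval 23.2 to 45.3%, beside 26.6% of all regions near genes). Another 7 were in 3 lists, 7 in 2 and 30 in 1, beside 4155, 5274 and 17900 of all 37222 regions near genes. Regions in all 4 lists had a median width of 1090.5 bp against 373 bp for those in 1 list, much as over all regions near genes (1045 and 382.5 bp). Within 1 kb of an end or start of a member or another coding gene were 15 of those 22 (68.2%) and 4 of the 30 in 1 list (13.3%), beside 77.1% and 13.3% of all regions near genes. The highest −log10 q of a region found in 1 list alone was 11.9. This score and the fold enrichment are the authors' own and are given per list, while the reads at a summit were recovered from them and are not corrected for depth.

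**Figure D2:**
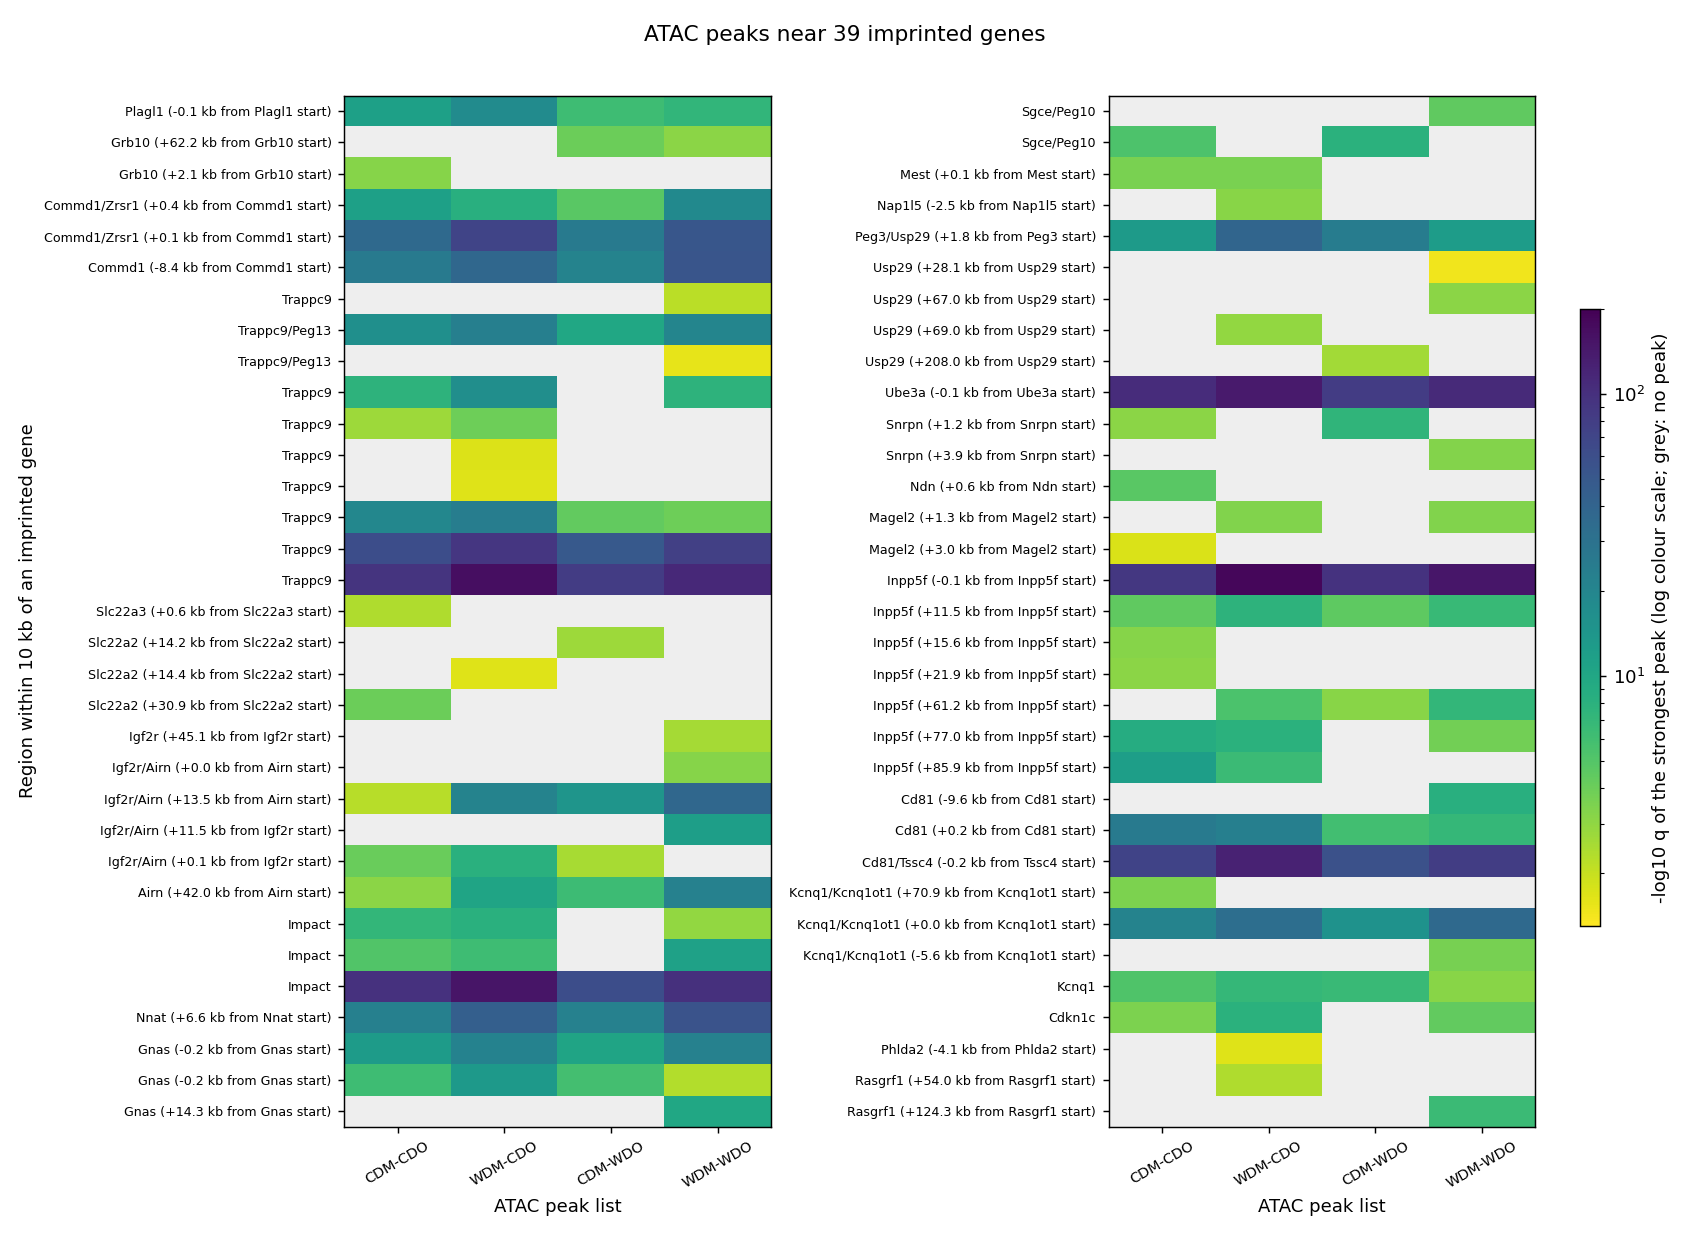
Regions near imprinted genes (rows, labelled with the members and, where RefSeq gives a start, the distance of the summit from the nearest member start) in the 4 ATAC peak lists (columns). Colour gives the −log10 q of the strongest peak on a log colour scale and grey means no peak; 22 of the 66 rows are filled in all 4 columns and 30 in 1.

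Igf2 and H19, a growth factor and the non-coding RNA that shares its enhancers, had no peak within 10 kb in any list. Neither had Dlk1, a membrane protein of the Notch ligand family, or the non-coding RNAs Meg3 and Rian of the same cluster. The other members without any peak were Ascl2, a transcription factor of the placenta, the zinc finger gene Zim1 and the amino acid transporter gene Slc38a4. Rasgrf1, an exchange factor for Ras, had 2 regions in 1 list each. One lay 54027 bp downstream of its start in WDM-CDO (18 reads) and the other 124337 bp downstream in WDM-WDO (36 reads). Within 10 kb of its members, each of the 3 loci with a control region methylated in sperm thus lacked a region shared by all lists. The positions of the control regions themselves were not used. Peaks on them were counted only where they lay within 10 kb of a member. This grouping of the loci was made after their values were seen. The Mest, Grb10, Peg10-Sgce, Nap1l5 and Slc38a4 loci also lacked a region shared by all lists, so this was not particular to methylation in sperm. No peak in a list does not show that chromatin was closed, since the reads that a call needs rise with the background around it. The lowest called pileups of the lists were 14 to 16 reads, but a Trappc9 region of 25 reads had a −log10 q of just 1.68. Where a list lacked a peak, the reads expected there were scaled from a list with one. They are given below beside the reads needed for a call at that place's own background, scaled likewise.

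The promoters methylated in the egg fell into several groups. Kcnq1ot1, a non-coding RNA that silences its neighbours on the paternal chromosome, had a peak with its summit 15 bp inside the start. It held 56, 84, 49 and 87 reads at the summit, with a −log10 q of 21.0, 32.2, 15.3 and 35.6. Plagl1, a zinc finger transcription factor with a place in a network of imprinted growth genes, had its peak 80 bp before the start with 31, 46, 25 and 30 reads. The splicing factor gene Zrsr1, which lies in an intron of Commd1, had 37, 36, 25 and 52 reads in a region over its start, which also reaches the window of a shorter Commd1 transcript. These 3 promoters were open in every list, at 25 reads or more. The Peg13 RNA, placed within Trappc9, had 55, 74, 46 and 69 reads at its upper-coordinate end. Gnas, the gene of the stimulatory G protein alpha subunit with several alternative promoters, had 53, 74, 45 and 67 reads 197 bp before the start whose window is shown above or its close neighbour. A second Gnas region, before its most downstream start, had 41, 62, 37 and 31 reads. It reached the promoter window of that start in every list but WDM-WDO, where its −log10 q was 2.34.

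Peg3, a zinc finger gene expressed from the paternal copy, shares a bidirectional promoter with Usp29. Its peak lay not on the promoter window but inside the gene, with the summit 1839 bp downstream of the start. At 2387 bp this was the widest of the 66 regions. It held 53, 102, 77 and 49 reads, with a −log10 q of 12.8, 38.4, 24.0 and 12.4. The WDM list was the higher of the pair under CD of the offspring and the lower under WD, while at strong shared regions the CDM lists held a median 0.666 and 0.696 times the reads of the WDM lists above background. This difference was not tested. Impact, which regulates translation under stress, had within its span the region with the most reads of all 66, at 212, 308, 151 and 228. Its second region, close to the lower-coordinate end, had 27, 28 and 41 reads in CDM-CDO, WDM-CDO and WDM-WDO and no peak in CDM-WDO. The third had 27, 30 and 22 reads in the same lists and no peak in CDM-WDO. From CDM-CDO and WDM-WDO the reads expected in CDM-WDO were 1.20 and 1.57 times those needed at the second region. At the third they were 1.41 and 0.975 times those needed.

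Other such promoters were called in some lists or in none. The Mest promoter, of a hydrolase-like gene active in growing mesoderm, had 21 reads in CDM-CDO and 23 in WDM-CDO with its summit 64 bp inside the start. No Mest peak was called in either WDO list. From the CDO pileups the reads expected in CDM-WDO and WDM-WDO were 1.12 and 1.11 times those needed for a call there, so absence was not detectable at this depth. Nap1l5 had its only region 2466 bp before its start, in WDM-CDO alone with 20 reads. The growth-restraining adaptor gene Grb10 had a region 62203 bp inside it in both WDO lists, with 25 reads each. Its other region, 2071 bp inside one of its starts, was in CDM-CDO alone with 20 reads. For the membrane proteolipid gene Nnat, which lies in an intron of Blcap, the promoter window was free of peaks. The region 6635 bp downstream of its start lay on the promoter of Blcap and had 58, 102, 63 and 126 reads.

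In the Kcnq1 cluster the peaks lay at both flanks, at the Kcnq1ot1 start and elsewhere inside Kcnq1. Tssc4, at the edge of the cluster, had the strongest region, 233 bp before its start, with 162, 251, 133 and 170 reads. Cd81, which encodes a tetraspanin of many cell surfaces including those of lymphocytes, had 72, 80, 39 and 43 reads 191 bp inside its start. Both CDO values lay above both WDO values. At strong regions of all 4 lists the summits of CDM-WDO held a median 0.834 times the reads of CDM-CDO above background, and those of WDM-WDO 0.793 times the reads of WDM-CDO. Lymphocyte markers with a gene-end peak numbered 5 and 6 in the CDO lists and 0 and 4 in the WDO lists, and their part in the Cd81 values was not tested. A peak 9604 bp before the Cd81 start was called in WDM-WDO alone, with 44 reads. Cdkn1c, an inhibitor of cyclin-dependent kinases that holds back growth, had 29, 46 and 33 reads near its upper-coordinate end in all lists but CDM-WDO. The potassium channel gene Kcnq1 had a region in all 4 lists far inside its span with 27, 35, 32 and 25 reads. Phlda2, a brake on placental growth, had 1 region, in WDM-CDO alone with 23 reads and a −log10 q of 1.65.

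In the Igf2r cluster 2 of 10 regions were in all lists and 7 in 1 list, beside 9893 and 17900 of all 37222 regions near genes. Igf2r, the receptor that clears IGF2, had a peak on its promoter with 26, 37 and 24 reads in CDM-CDO, WDM-CDO and CDM-WDO and none in WDM-WDO. From WDM-CDO 31.0 reads would be expected in WDM-WDO, 1.41 times those needed for a call there. The antisense RNA Airn, which starts in an intron of Igf2r and silences it on the paternal chromosome, had a peak 26 bp inside its start in WDM-WDO alone, with 29 reads and a −log10 q of 3.23. From it 34.5 reads would be expected in WDM-CDO, where a call needed 25, and 21.4 in CDM-WDO, where it needed 21. The Airn call was weak. The Igf2r promoter peak had a −log10 q of 4.07, 8.23 and 2.54, of which that of WDM-CDO was close to the median of its list (8.21). With a −log10 q of at least 5 the Airn peak was in 0 lists and that of Igf2r in 1, and at equal list length the Airn peak was again in 0.

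Between those promoters, 13527 bp inside Airn, a region of all 4 lists held 25, 69, 54 and 106 reads, with a −log10 q of 2.24, 20.9, 14.4 and 37.1. A neighbouring region 11509 bp inside Igf2r was called in WDM-WDO alone with 65 reads, the most of any region found in 1 list. It lies on a high local background of 20.6 reads. In WDM-CDO 79.9 reads would be expected there, 1.90 times the 42 that a call needed, and in CDM-WDO 46.5 where it needed 31. Upstream of the Igf2r promoter, within Airn, a further region had 22, 39, 30 and 59 reads. All 3 were highest in WDM-WDO, the list in which 8 of 8 macrophage markers had a gene-end peak, against 3, 2 and 2 in the others, and the part of such cells was not tested. The organic cation transporter genes Slc22a2 and Slc22a3, imprinted in placenta, had only regions of 1 list each, 3 and 1, with at most 22 reads.

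**Figure D3:**
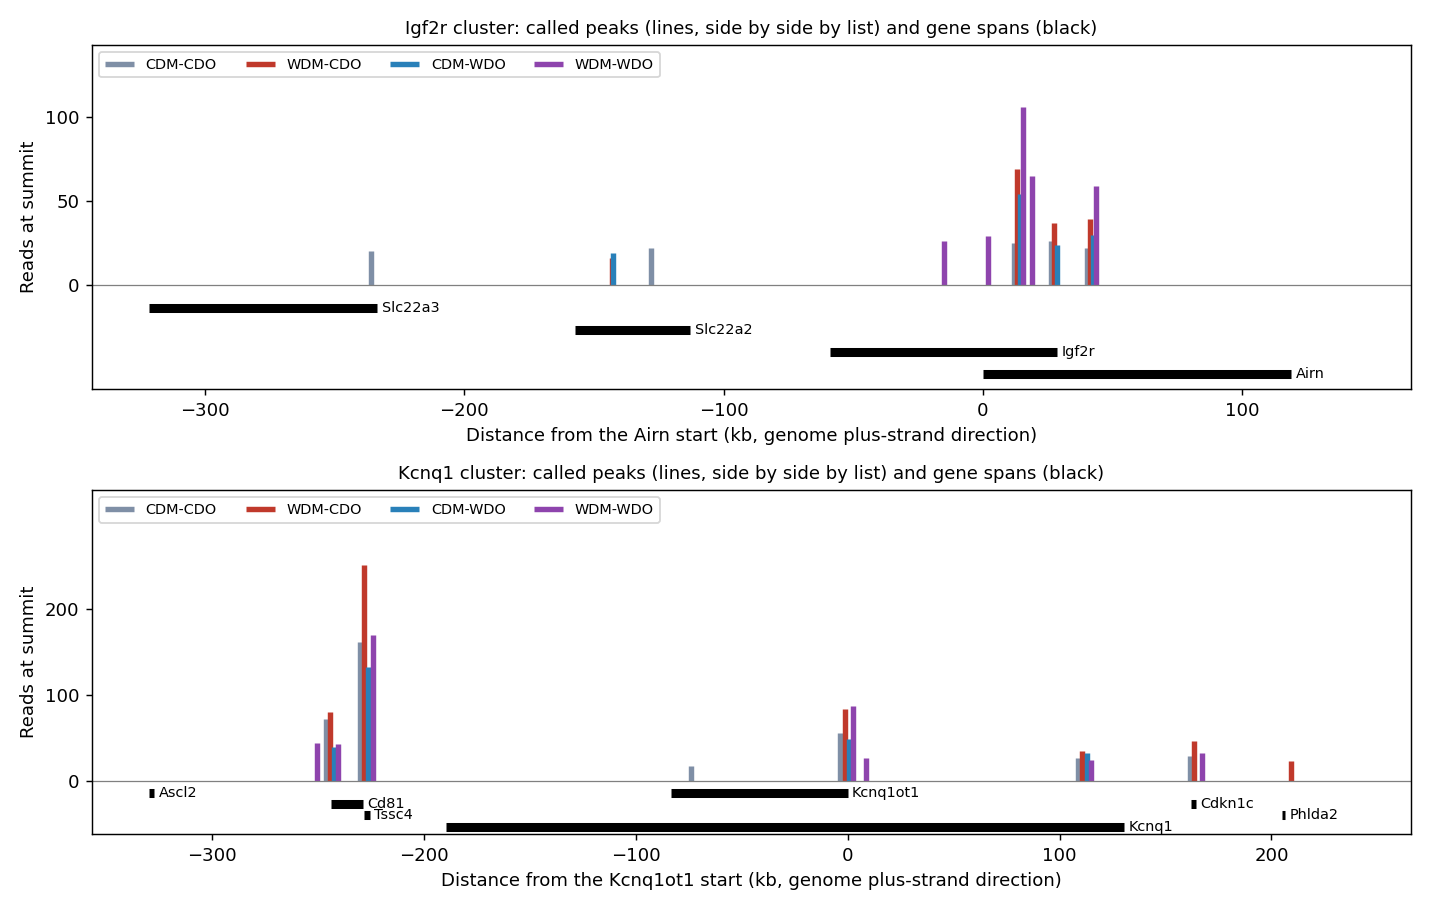
Reads at the summit of each called peak (vertical lines, drawn side by side so that the 4 lists can be told apart) against distance from the Airn start (upper panel) and the Kcnq1ot1 start (lower panel), with gene spans in black below. The peak inside Airn rises from 25 reads in CDM-CDO to 106 in WDM-WDO, while the Kcnq1ot1 start has a line of every list.

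Ube3a, a ubiquitin ligase imprinted in neurons only, had 169, 220, 133 and 187 reads 71 bp before its start. Inpp5f, a phosphoinositide phosphatase, had 137, 247, 140 and 210 reads 112 bp before its main start, and 7 regions in all. Trappc9, a vesicle transport subunit, had the most regions of any member, 10, of which 4 were in all lists. Its upper-coordinate end held 116, 162, 101 and 148 reads, and a region beyond that end 163, 259, 138 and 189. A Trappc9 region within the gene held 55, 66, 30 and 30 reads, and here too the CDO values lay above the WDO values. Commd1, a copper and NF-kB regulator, had 75, 125, 61 and 104 reads 89 bp inside its upper start. Next to it, at the end of the chaperonin gene Cct4, a region held 55, 78, 53 and 102 reads.

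The first comparison of the mothers' diets was WDM-CDO against CDM-CDO, in offspring kept on CD. Of 50 regions near members, 9 were in WDM-CDO only (18%, interval 9.77 to 30.8%, beside 30.7% of all regions near genes) and 10 in CDM-CDO only (20%, 11.2 to 33%, beside 13.2%). Here and below, only means absent from the other list of the pair. Both shares of all regions lay within the intervals, the first of them at the very edge. The strongest in WDM-CDO only was 61168 bp inside Inpp5f (−log10 q 5.38, 23 reads), followed by Magel2 (3.38), Nap1l5 (3.19), Usp29 (2.95) and Rasgrf1 (2.38). In CDM-CDO the reads expected at these 9 regions were 0.841 to 1.17 times those needed for a call, so a missed call and an absent peak cannot be told apart. The strongest in CDM-CDO only lay near Peg10 and Sgce (5.28, 23 reads). It was followed by the promoter of Ndn, a growth suppressor of neurons (4.71, 20 reads), then Slc22a2 (4.01) and Kcnq1 (3.54). At these 10 regions the reads expected in WDM-CDO were 1.28 to 1.93 times those needed, though the deeper list and the choice of called peaks both raise that value. With both lists cut to 18962 peaks, 2 of 39 regions were in WDM-CDO only (5.13%, beside 16.0% of all) and 9 in CDM-CDO only (23.1%, beside 14.0%). With a −log10 q of at least 5, 6 of 31 were in WDM-CDO only (19.4%, beside 22.5%) and 1 in CDM-CDO only (3.23%, beside 5.36%).

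The second comparison was WDM-WDO against CDM-WDO, in offspring given WD. Here 19 of 48 regions were in WDM-WDO only (39.6%, interval 27 to 53.7%, beside 42.3%) and 5 in CDM-WDO only (10.4%, 4.53 to 22.2%, beside 14.5%), shares close to those of all regions near genes. The strongest in WDM-WDO only was the region 11509 bp inside Igf2r (−log10 q 11.9). Next came the second Impact region (11.2), a Gnas region 14290 bp inside its last start (40 reads), the one upstream of Cd81 (8.39) and a Trappc9 region also present in both CDO lists (7.77). The strongest in CDM-WDO only lay near Peg10 and Sgce (8.04), then Snrpn (7.42), Slc22a2 (2.73), Usp29 (2.62) and the promoter of Igf2r (2.54). The reads expected in CDM-WDO reached those needed at 12 of the 19 regions, by at most 1.57 times. At the 5 regions in CDM-WDO only, the reads expected in WDM-WDO were 1.36 to 2.22 times those needed. The deeper list and the choice of called peaks both raise these last values. At equal list length 8 of 37 regions were in each list only, 21.6% beside 29.2% and 19.8% of all. With a −log10 q of at least 5, 9 of 30 were in WDM-WDO only (30%, beside 39.3%). In CDM-WDO only were 4 at that threshold (13.3%, beside 4.25%), so there this share was not close to that of all regions.

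**Figure D4:**
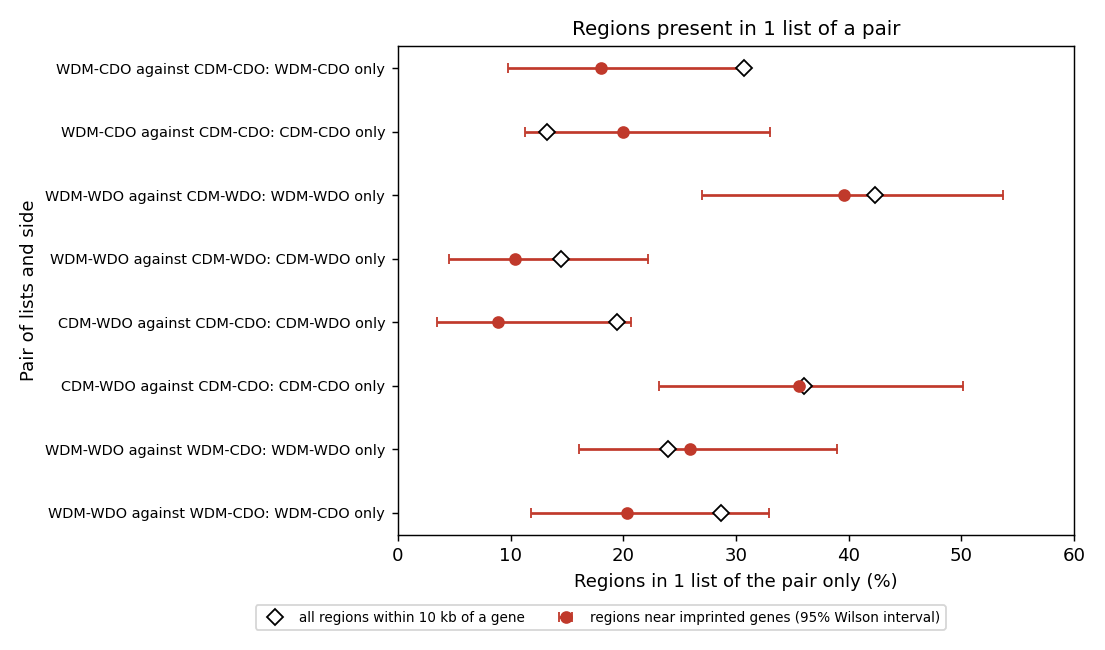
Share of regions (%) found in 1 list of each pair only, for regions near imprinted genes (points with 95% Wilson interval) and for all regions within 10 kb of a gene (diamonds). The point furthest below its diamond is WDM-CDO only against CDM-CDO (18% against 30.7%), at the upper edge of its interval, and all diamonds lie within their intervals.

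Under both offspring diets 3 regions followed the mothers' diet. That of Peg10 and Sgce kept its lists at a −log10 q of at least 5 and at equal list length. Both settings only remove peaks, so they bear on the calls in the lists of CD mothers and could not change the absences. The call in CDM-CDO passed the stricter threshold narrowly (5.28), and equal length leaves the CDM-WDO list whole. Under the stricter threshold the Snrpn region was in 1 list, and that of Magel2 was in 0 lists under either. In both lists of CD mothers and neither of WD mothers were 2 of the 66 regions (3.03%), beside 0.371% of all regions near genes. In both lists of WD mothers and neither of CD mothers was 1 (1.52%), beside 3.8%. These counts are too small for a statement on the genes as a group. The first region lay in Peg10, a gene derived from a retrotransposon and needed for the placenta, near the end of the gene that adjoins Sgce, which encodes epsilon-sarcoglycan (chromosome 6, 4749088 to 4749426). It held 23 reads in CDM-CDO and 29 in CDM-WDO, with a −log10 q of 5.28 and 8.04. From these 32.9 and 39.9 reads would be expected in WDM-CDO and WDM-WDO, 1.93 and 2.21 times those needed for a call. In WDM-WDO a separate peak was called 811 bp nearer that end (23 reads, −log10 q 4.46), where no other list had one. In offspring on WD both lists thus had a Peg10 peak, at different places, and WDM-CDO had none.

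The second region lay 1188 bp inside the Snrpn start whose window is shown above (chromosome 7, 60003678 to 60004754). Snrpn encodes a splicing protein and its start region is the imprinting centre of the Prader-Willi and Angelman locus. The region held 18 reads in CDM-CDO and 26 in CDM-WDO, with a −log10 q of 3.12 and 7.42. Expected in WDM-CDO and WDM-WDO were 25.3 and 35.6 reads, 1.58 and 2.22 times those needed for a call. The expected values start from a peak that had to pass the calling threshold, which biases them upward. The third region, in both lists of WD mothers, lay 1311 bp inside Magel2, a gene of the same locus that regulates protein recycling, with 24 reads in each. In the lists of CD mothers 17.1 and 18.0 reads would be expected, 1.01 and 0.998 times those needed, so absence was not detectable at this depth. CDM-CDO had a weaker Magel2 peak of its own 1116 bp further on, with 19 reads.

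**Figure D5:**
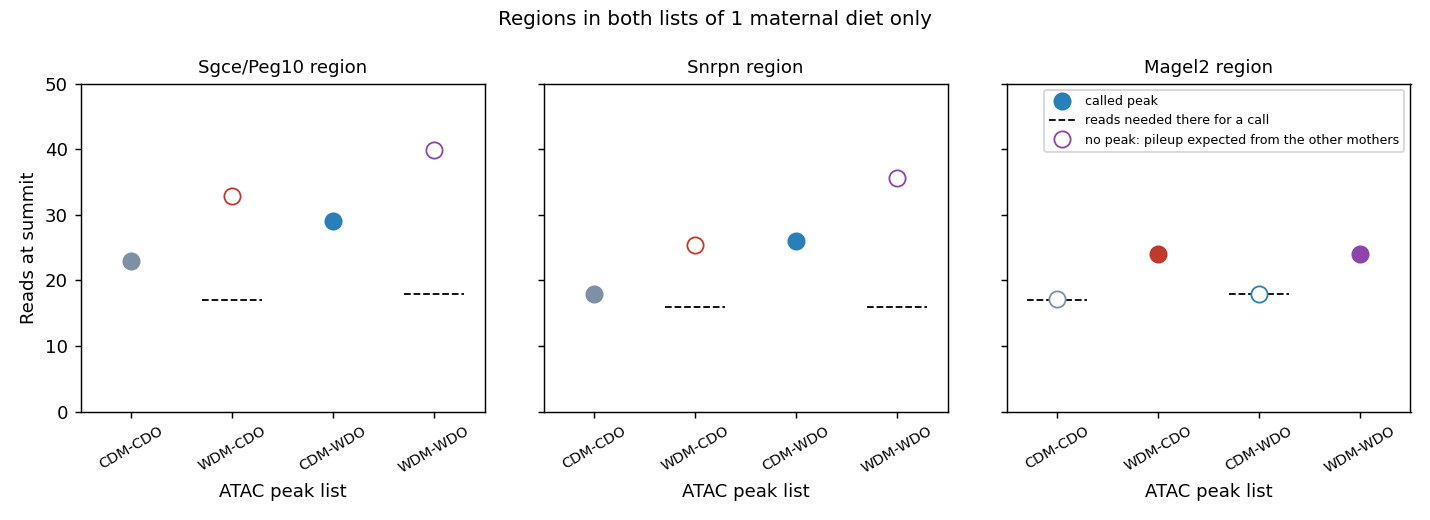
Reads at the summit in the 4 ATAC peak lists for the 3 regions found in both lists of 1 maternal diet only. Filled points are called peaks, open points the reads expected in a list without a peak from the list of the same offspring diet, and dashes the reads needed there for a call; open points of Sgce/Peg10 lie at 32.9 and 39.9, above the dashes at 17 and 18, and those of Magel2 on the dashes.

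Across the diets of the offspring, with the 08w and 12w tags changing alongside, the share of all regions again lay within the members' interval on every side. In CDM-WDO against CDM-CDO, 4 of 45 regions were in CDM-WDO only (8.89%, interval 3.51 to 20.7%, beside 19.5%) and 16 in CDM-CDO only (35.6%, 23.2 to 50.2%, beside 36%). In WDM-WDO against WDM-CDO, 14 of 54 were in WDM-WDO only (25.9%, 16.1 to 38.9%, beside 24%) and 11 in WDM-CDO only (20.4%, 11.8 to 32.9%, beside 28.7%). Found in both CDO lists and neither WDO list were 3 of the 66 regions (4.55%), beside 6.35% of all regions near genes. They were the Mest promoter, a Trappc9 region (26 and 31 reads) and an Inpp5f region (41 and 31 reads). The Inpp5f region lay past the upper-coordinate end of the gene, next to Mcmbp. For the last, 35.6 reads would be expected in CDM-WDO and 26.2 in WDM-WDO, 1.70 and 1.31 times those needed. Found in both WDO lists and neither CDO list was 1 region (1.52%, beside 1.45% of all regions near genes), the Grb10 region 62203 bp inside the gene.

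Member promoter windows with a peak in all lists held as many CpG dinucleotides, the sites of DNA methylation, as other open promoters did. The 11 member windows held a median of 23 CpG (9 to 29), the 6 with a peak in 1 to 3 lists a median of 17 (3 to 40), and the 30 without a peak a median of 9 (0 to 45). Over all RefSeq windows the medians were 23, 16 and 4 in the same order. Several windows belong to 1 gene and overlap, so they are not independent. High CpG content did not go with a peak at every member, since the Grb10 window with 45 CpG and that of Phlda2 with 26 had none. The low end among windows open in all lists was Kcnq1ot1 with 9, and Airn, open in WDM-WDO only, had 3. The hexamer bound by ZFP57 was in 2 of the 11 windows with a peak in all lists and in 8 of the 30 without (26.7%), beside 21.9% and 6.40% of all such windows.

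Of 20 genes that lay down, keep or erase imprints, 12 had a gene-end peak in all 4 lists and 6 in none, beside 27.4% and 55.3% of all genes. The counts per list were 13, 14, 12 and 13, beside the 36.7%, 39.5%, 30.3% and 36.6% of all genes given above. Those in all lists included the corepressor gene Trim28 (−log10 q of 24.8, 26.4, 19.6 and 22.3), the insulator protein gene Ctcf (44.8, 55.7, 13.7 and 13.9), Uhrf1, which brings the maintenance methylase to new DNA (16.2, 30.4, 7.65 and 20.9), and the demethylating oxidases Tet1, Tet2 and Tet3. Zfp445, which acts beside ZFP57, had a gene-end peak in WDM-CDO and WDM-WDO (12.9 and 5.32) and in neither list of CD mothers. The histone methylase gene Setdb1 had one in both CDO lists alone (3.07 and 11.9). None was called at Zfp57, Dnmt1, Dnmt3a, Dnmt3l, Dppa3 or Ehmt2. The lists of WD mothers were the longer of each pair (28319 against 22178 peaks and 26275 against 18962). Reads expected in the lists without a peak were not computed for these genes, so a missed call cannot be told apart there.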

How the data were processed

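The 4 ATAC-seq peak lists, 1 per group of 2 samples, were used as deposited. The submitters' processing notes list MACS2 2.2.9.1, Bowtie2 2.4.5 and GRCm38 (mm10), beside Trim Galore 0.6.10 and SAMtools 1.13. No source used here gives settings, a shift for the transposase or whether the samples of a group were pooled. The fold enrichment, a ratio, and the −log10 p and −log10 q of each peak are the authors' values. The display score and summit offset are deposited columns, of which the score was not used.

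Reads at each summit were recovered from fold and −log10 p under the MACS2 Poisson rule, with 1 read added to pileup and background. A whole number fitted 100% of peaks (relative tolerance 0.0001). Reads expected in another list were scaled by the median ratio above background at 3548 regions of −log10 q 20 or more in all lists. The reads needed there were the fewest that reach that list's lowest called −log10 p at the local background, scaled the same way. Peaks on chromosome Y (3 to 8 per list) were left out. Peaks were merged at 1 bp of overlap and set against RefSeq GRCm38.p6 spans (21631 protein-coding and 12697 lncRNA genes), in Python 3.11.15 with scipy 1.17.1, tested on simulated data. Shares carry 95% Wilson intervals. All 39 members matched by symbol. Members, gene lists and tests were chosen with earlier results of these data known. Named in full were members of the strongest shared regions (up to 10), the 5 strongest members on each side of the maternal comparisons, those following the mothers' diet and the richest of each cluster. The grouping by egg or sperm methylation and the figures' examples came after the values were seen. Alternatives were a −log10 q of at least 5, equal list length, other windows, 50% overlap and, added after seeing the data, leaving out ends of other coding genes or the CDM-WDO list.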

Additional observations from a re-analysis of the deposited data

How the results depend on the processing

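No paired analysis was possible because each group has 1 peak list, so no replicate could be left out either. Of 74 recomputed shares and counts, 68 stayed within the interval of the share or within 1.5 times the count, and 6 moved. With a −log10 q of at least 5, the share in CDM-CDO only against WDM-CDO was 3.23%, that in WDM-WDO only against WDM-CDO was 11.8%, and 18 members had a peak in CDM-CDO. At equal list length the share in WDM-CDO only against CDM-CDO was 5.13%, that in WDM-WDO only against CDM-WDO 21.6% and that in WDM-WDO only against WDM-CDO 14.3%. In both settings fewer peaks enter by construction, and a region absent from a list stays absent. Of the 66 regions, 23 kept their lists at the stricter threshold and 30 were left in no list, while 40 kept their lists at equal length and 19 were left in none. The Peg10 and Sgce region of both CD mothers kept its lists in both settings and that of Snrpn at equal length only, with 1 list left at the stricter threshold. The Magel2 region and the Airn promoter were left in no list in either. Depth limits the weak calls, and the reads that a call needs depend on the background at each place.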

Other observations

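Of 40 other imprinted genes, 15, 20, 13 and 16 had a gene-end peak in CDM-CDO, WDM-CDO, CDM-WDO and WDM-WDO, 11 of them in all lists and 18 in none, beside 27.4% and 55.3% of all genes. Those in all lists included the nucleosome assembly gene Nap1l4 (−log10 q of 80.4, 163, 55.6 and 70.0), the sterol reductase gene Dhcr7 (30.2, 79.7, 34.9 and 57.7) and Pon2, which guards against lipid oxidation (23.6, 29.7, 7.38 and 22.0). Rtl1, Mirg, Dio3 and Begain, which lie beside Dlk1, Meg3 and Rian, had none in any list. Ins2 and Th, the neighbours of Igf2, had none either. Tnfrsf23, a decoy receptor gene near the Kcnq1 cluster, had a gene-end peak in every list but CDM-CDO (21.9, 9.86 and 16.5), and the gene of the chemerin receptor Gpr1 had one in CDM-CDO alone (8.17). Reads expected in lists without a peak were not computed for these other imprinted genes, so missed calls cannot be told apart there.

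Of 10 genes of the IGF axis, in which IGF2 and its receptor act, 5, 7, 5 and 5 had a gene-end peak (36.7%, 39.5%, 30.3% and 36.6% of all genes). The receptor genes Igf1r (25.0, 30.8, 9.89 and 7.95) and Insr (20.5, 33.8, 8.76 and 36.4) and the adaptor genes Irs1 (15.1, 26.7, 12.0 and 8.62) and Irs2 (22.6, 42.0, 19.1 and 34.1) had one in all lists. The ligand gene Igf1 had none in any list. Igfbp4, which encodes an IGF binding protein, had one in both lists of WD mothers alone (8.56 and 6.08), and Igfbp7, made by endothelium, had one in every list but WDM-WDO (5.09, 13.4 and 8.17). The lists of WD mothers were the longer of each pair. Reads expected in lists without a peak were not computed for the IGF axis, so a missed call and an absent peak cannot be told apart.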
